A study of Mus musculus with 6 samples.

Results

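The 10 genes described here encode the epithelial sodium channel of the collecting duct (Scnn1a, Scnn1b and Scnn1g) and the proton pump subunits, anion exchangers and transcription factor of the neighbouring intercalated cells (Atp6v1b1, Atp6v0d2, Atp6v1g3, Slc4a1, Slc4a9, Slc26a4 and Foxi1). They were taken by gene name from the annotation of the array, and were chosen with earlier results of these data known. They are 10 of the 36870 gene names of the array and 13 of its 56605 non-control probes. The channel genes have 4 of these probes and the intercalated cell genes 9. The kidneys came from female mice at 6 months of age, namely 3 MRL/MpJ mice (MRL), the control strain, and 3 MRL/MpJ-Fas lpr/lpr mice (LPR), which carry the lpr mutation of Fas in every cell on the same MRL/MpJ background and serve as a model of lupus nephritis. None of the mice received a treatment named in the labels. The study compared the groups for genes of tertiary lymphoid tissue, and the collecting duct was not its question. By staining it also found more damaged tubules, positive for IL-1F6, in LPR than in MRL mice of this age. Whole kidney RNA was labelled with Cy3 and hybridized to 1 array per mouse, with no pooling, so that the signal of a collecting duct gene is diluted by all other cells of the organ.

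The epithelial sodium channel is built of α, β and γ subunits, lies in the apical membrane of principal cells, and carries the final, aldosterone-controlled reabsorption of sodium. Intercalated cells lie between the principal cells and set the acid-base balance with a vacuolar proton ATPase. Type A cells secrete protons at their apical side and return bicarbonate to the blood through the exchanger AE1, whereas type B cells secrete bicarbonate through the apical exchanger pendrin.

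Each array held 59305 non-control spots, of which 69.6% to 70.6% were well above background in MRL mice and 70.7% to 73.5% in LPR mice. No spot was saturated. The 75th percentile of the intensities lay between 706 and 759 on 5 arrays and was 942 on that of LPR 1. Between mice of a group the arrays correlated across probes with a Pearson's r of 0.990 to 0.993, and between mice of different groups with 0.961 to 0.971, where probes are no independent replicates. The arrays of MRL 1 to 3 and LPR 1 lay in column 1 of the slide and those of LPR 2 and LPR 3 in column 2. Settings with the slide column in the fit, or within column 1, therefore compare LPR 1 alone with the MRL mice. As a check of the labelled tissue, all 10 proximal tubule markers were well above background in every mouse. Of 2 Fas probes, the brighter changed by -0.47 on the log2 scale (limma, adjusted p = 0.234), and the other stood clear of the background in every LPR mouse and in no MRL mouse. Signals below are log2 intensities minus the 75th percentile of the array, and a change is LPR minus MRL on that log2 scale. They cannot be set against each other between probes. Over all 39924 tested probes the median change was -0.14, and each change is to be read against this shift.

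In LPR kidneys, 4 of the 10 genes were lower than in MRL kidneys and none was higher in limma at an adjusted p under 0.05. Over all 25805 tested genes, each by its brightest probe, 5.47% were lower and 7.12% higher. The change was below 0 for 9 of the 10 genes, as it was for 67.5% of all tested genes. The 4 genes that fell were all of the intercalated cells, and they were Slc4a9, Slc26a4, Atp6v1g3 and Atp6v0d2, whose signals were 26.7% to 43.7% lower in LPR mice. Leaving out MRL 1 or MRL 2 left 2 of the 4 calls, and leaving out MRL 3 or LPR 3 left 1. None of the 3 channel genes passed the test, and whether their changes differ from those of the intercalated cell genes was not tested. In 7 genes, 5 of the intercalated cells and 2 of the channel, all LPR mice lay below all MRL mice, which held for 25.6% of all tested genes. At an unadjusted p under 0.05, 8 of the 10 genes were lower, against 18.9% of all tested genes. The median change was -0.33 over the channel genes, -0.46 over the intercalated cell genes and -0.12 over all tested genes. Of the 13 probes, all of which were well above background in every mouse, 5 were lower and none higher, against 6.17% and 6.53% of all tested probes. In 9 of the 13 all LPR mice lay below all MRL mice, against 26.9% of all tested probes. In whole kidney RNA, fewer cells of a type and less RNA per cell cannot be told apart. Markers of cells outside the tubules moved with the groups. Of 11 T and B lymphocyte markers, all well above background in every mouse, 9 were higher and 1 was lower in LPR mice by the brightest probe. The probes of the lower gene, Ms4a1, disagreed. Its brightest was lower (-0.70, adjusted p = 0.0497 in limma) and its other probe was higher. Cd22 did not pass by its brightest probe, and of its other probes 1 was higher and 1 did not pass. Both genes were named after their values were seen. The summed level of the 11 markers, in units of the array's 75th percentile, was 2.91 to 3.19 in MRL mice and 16.8 to 20.2 in LPR mice. Of 7 fibroblast and matrix markers, also above background throughout, 5 were higher and none lower, with summed levels of 24.2 to 25.9 and 46.7 to 50.9. The part of these cells in the lower signals of the collecting duct genes was not tested.

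**Figure D1:**
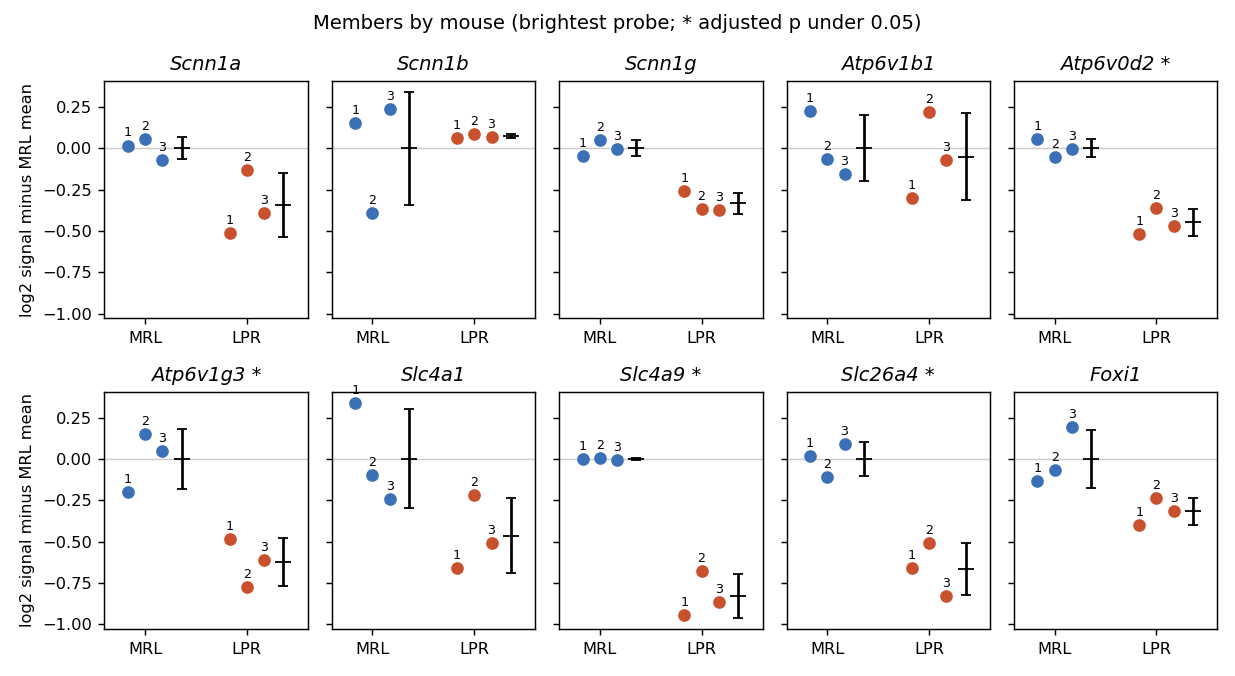
Signal of each of the 10 genes by mouse, as the log2 signal minus the mean of the MRL mice, with MRL mice in blue, LPR mice in red, the mouse number beside each point, and a black bar for the group mean with its SD (n = 3). The red points of the 4 starred genes lie entirely below the blue points, by the widest margin in Slc4a9, whereas those of Scnn1b, Atp6v1b1 and Slc4a1 overlap with them.

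Scnn1a encodes the α subunit, without which the channel does not reach the membrane. Its brighter probe (NM_011324, mm9 chromosome 6, 125294843 to 125294902) gave 3.00, 3.04 and 2.91 in MRL 1, 2 and 3 and 2.47, 2.85 and 2.59 in LPR 1, 2 and 3. The groups did not overlap, but LPR 2 lay only 0.06 below the lowest MRL mouse. The means were 2.98 ± 0.07 and 2.64 ± 0.19 (SD, n = 3 each), and the change of -0.35 (standard error 0.13, 95% interval -0.65 to -0.04) was not past the threshold (limma, adjusted p = 0.125). Without LPR 2 the change was -0.45, with an adjusted p of 0.0481. The second Scnn1a probe, on the same chromosome from 125293939 to 125293998, gave 0.26, 0.23 and 0.08 in MRL mice and -0.11, 0.15 and 0.11 in LPR mice. Here LPR 1 was again the lowest mouse, but LPR 2 and LPR 3 lay among the MRL mice, and the change of -0.14 (95% interval -0.42 to 0.14) was close to the median of all probes.

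Scnn1g, the γ subunit, separated the groups more widely. Its probe (NM_011326, mm9 chromosome 7, 128911434 to 128911493) gave 0.64, 0.74 and 0.68 in MRL mice and 0.43, 0.32 and 0.31 in LPR mice. The groups were apart by 0.21, more than the range within either of them. From 0.69 ± 0.05 to 0.35 ± 0.07 (SD, n = 3 each) the change was -0.33 (standard error 0.10, 95% interval -0.56 to -0.10), with a p of 0.0116 and an adjusted p of 0.0714 in limma. It passed the threshold under 4 of 23 other settings, namely normexp background correction, an intensity trend and the methods' t-test on log2 and on linear values.

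Scnn1b, the β subunit, was measured by the following 60-base probe, printed because it is the only channel probe without a lower mean in LPR mice. It is given 5′ to 3′ as on the array, at chr7:129042869-129042928 of mm9 (strand not given in the sources used here), with no base singled out.
Scnn1b probe: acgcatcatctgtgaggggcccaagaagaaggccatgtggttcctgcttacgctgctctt
It gave -4.05, -4.60 and -3.97 in MRL mice and -4.14, -4.12 and -4.14 in LPR mice. The 3 LPR mice lay within the range of the MRL mice, of which MRL 2 was the lowest of all 6 mice. The change was 0.07 (standard error 0.18, adjusted p = 0.807 in limma), and its 95% interval from -0.34 to 0.49 includes the change of Scnn1g. Without MRL 2 the sign turned, and the change was -0.12.

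**Figure D2:**
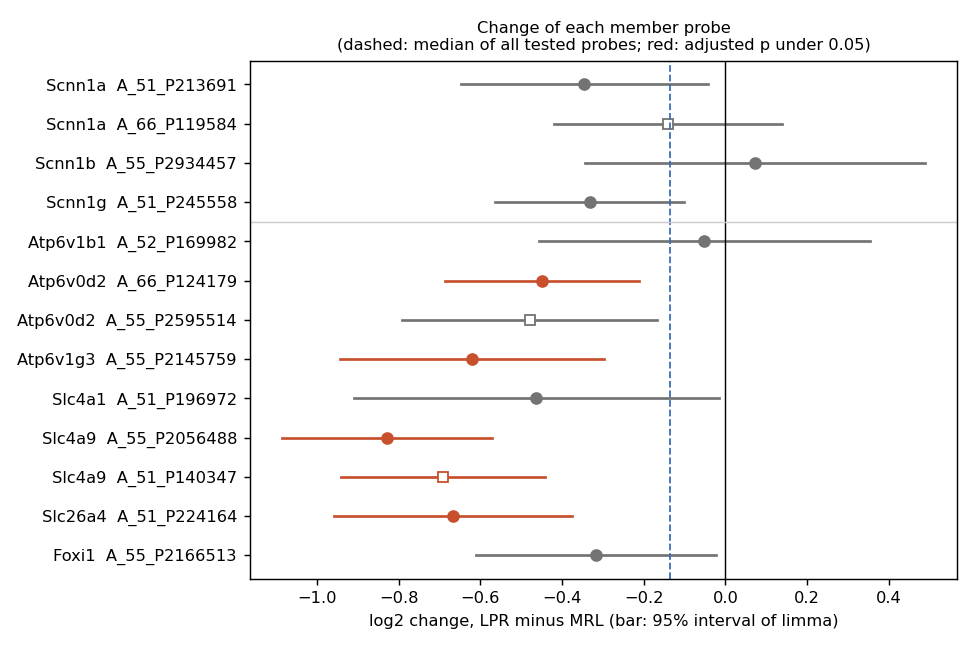
Change of each of the 13 probes (LPR minus MRL, log2 scale) with the 95% interval from limma, where circles are the brightest probe of a gene, open squares its other probe, and red marks an adjusted p under 0.05. The channel probes above the grey line reach from -0.35 to 0.07, and the 9 intercalated cell probes below it from -0.83 to -0.05, with the median of all tested probes at -0.14 as a dashed line.

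The proton pump of intercalated cells uses subunit isoforms that most other cells do not use, among them B1 (Atp6v1b1), d2 (Atp6v0d2) and G3 (Atp6v1g3). Among these, Atp6v1g3 fell most. Its probe (NM_177397, mm9 chromosome 1, 140185743 to 140185802) gave -2.35, -2.00 and -2.10 in MRL mice and -2.63, -2.92 and -2.76 in LPR mice. The groups did not overlap, and here LPR 2 was the lowest mouse and LPR 1 the nearest to the MRL mice. The means were -2.15 ± 0.18 and -2.77 ± 0.15 (SD, n = 3 each), and the signal was 35.0% lower in LPR mice (change -0.62, standard error 0.14, adjusted p = 0.0301 in limma). The call was lost without MRL 2 (adjusted p = 0.103), MRL 3 (0.0957), LPR 2 (0.0624) or LPR 3 (0.0851). With the slide column in the fit or within column 1, which compare LPR 1 alone with the MRL mice, the change was -0.48 and did not pass.

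Both Atp6v0d2 probes, which lie at different places of the gene on mm9 chromosome 4, had lower signals in LPR mice. The brighter probe (NM_175406, 19805367 to 19805426) gave 0.03, -0.08 and -0.03 in MRL mice and -0.54, -0.38 and -0.49 in LPR mice. With no overlap and SDs of 0.05 and 0.08, the change was -0.45 (standard error 0.10, adjusted p = 0.0319 in limma), or 26.7% less signal. This call was lost without MRL 1 (adjusted p = 0.0966), MRL 2 (0.0929), MRL 3 (0.0998), LPR 1 (0.0761) or LPR 3 (0.100). With the slide column in the fit or within column 1, which compare LPR 1 alone with the MRL mice, the change was -0.52 and did not pass. The second probe, at chr4:19837769-19837828 of mm9, is printed with that of Atp6v1b1, at chr6:83706880-83707858 of mm9, to show which parts of these transcripts were read. The span of the latter exceeds its 60 bases, so it crosses at least 1 gap in the genome.
Atp6v0d2 second probe: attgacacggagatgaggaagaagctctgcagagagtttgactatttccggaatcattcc
Atp6v1b1 probe: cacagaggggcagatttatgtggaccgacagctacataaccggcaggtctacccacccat
The second Atp6v0d2 probe gave -2.71, -3.08 and -2.72 in MRL mice and -3.37, -3.27 and -3.31 in LPR mice. All LPR mice again lay below all MRL mice, and the change of -0.48 was like that of the brighter probe, but it did not pass (standard error 0.13, adjusted p = 0.0587 in limma). The order of the 6 mice from low to high was the same for both probes.

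Atp6v1b1, the B1 subunit whose loss causes distal renal tubular acidosis with deafness in humans, had no separation between the groups. It gave -0.49, -0.78 and -0.87 in MRL mice and -1.02, -0.49 and -0.78 in LPR mice. LPR 1 was the lowest mouse, whereas LPR 2 lay just below MRL 1, the highest. The change was -0.05 (standard error 0.17, adjusted p = 0.863 in limma), with a 95% interval from -0.46 to 0.35 that includes the change of the brighter Atp6v0d2 probe. It turned to 0.061 without MRL 1 and to 0.075 without LPR 1.

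Of the 3 anion exchangers, the 2 known from type B cells fell. That of type A cells, Slc4a1, had a change of -0.46 that did not pass, and its difference from the others was not tested. Slc4a9 encodes AE4, a basolateral transporter of type B cells. Its brighter probe (NM_001271544, mm9 chromosome 18, 36700885 to 36700944) gave 2.25, 2.26 and 2.25 in MRL mice and 1.31, 1.57 and 1.39 in LPR mice. The MRL mice were nearly identical, and LPR 2, the highest LPR mouse, lay 0.67 below them. The signal was 43.7% lower in LPR mice (change -0.83, standard error 0.11, 95% interval -1.09 to -0.57, adjusted p = 0.00370 in limma), and 2.43% of all tested probes had a more negative change. The other probe (NM_172830, 36699368 to 36699427) gave 0.72, 0.80 and 0.65 in MRL mice and -0.04, 0.14 and -0.0015 in LPR mice. The groups were again apart, with a change of -0.69 (standard error 0.11, adjusted p = 0.00746 in limma). Slc4a9 was the only one of the 10 genes whose call passed under all 23 other settings, with changes from -0.94 to -0.76.

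Slc26a4 encodes pendrin, the apical chloride and bicarbonate exchanger of type B and non-A, non-B cells. Its probe (NM_011867, mm9 chromosome 12, 32204766 to 32204825) gave 3.60, 3.48 and 3.68 in MRL mice and 2.93, 3.08 and 2.76 in LPR mice. All LPR mice lay below all MRL mice, by at least 0.40. The means of 3.59 ± 0.10 and 2.92 ± 0.16 (SD, n = 3 each) gave a change of -0.67 (standard error 0.12, 95% interval -0.96 to -0.38, adjusted p = 0.0159 in limma), or 37.0% less signal. The call was lost without MRL 1 (adjusted p = 0.0563), MRL 3 (0.0626) or LPR 3 (0.0569). With the slide column in the fit or within column 1, which compare LPR 1 alone with the MRL mice, the change was -0.66 and did not pass.

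Slc4a1 encodes AE1, the basolateral exchanger of type A cells, which is also the band 3 protein of red blood cells. Its probe (NM_011403, mm9 chromosome 11, 102210256 to 102210315) gave 1.69, 1.26 and 1.12 in MRL mice and 0.70, 1.14 and 0.85 in LPR mice. LPR 2 lay just above MRL 3, so the groups overlapped, and the spread within both was wide (SDs of 0.30 and 0.23, n = 3 each). The change of -0.46 (standard error 0.19, 95% interval -0.91 to -0.02) did not pass in limma (adjusted p = 0.153). Without MRL 1 it was -0.30. The difference between the changes of Slc4a1 and the type B genes was not tested.

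Because red blood cells also make Slc4a1, 17 erythroid markers were read beside it, of which 13 could be tested. Their summed level, in units of the array's 75th percentile, was 768, 101 and 430 in MRL 1, 2 and 3 and 584, 948 and 1171 in LPR 1, 2 and 3. It varied most among the MRL mice, and between 11 and 13 of the 13 markers were well above background in each mouse. None of 12 tested markers passed in limma in either direction, where 5.47% of all tested genes were lower and 7.12% higher. The remaining one, the transcription factor Gata1, stood above background in every LPR mouse and in no MRL mouse, so that it was tested only through its LPR signals. The part of red blood cell RNA in the Slc4a1 signal was not tested.

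Foxi1 is a forkhead transcription factor that intercalated cells need to form, and the genes of pendrin, AE1, AE4 and the B1 subunit are known to depend on it. Its probe (NM_023907, mm9 chromosome 11, 34104352 to 34104411) gave 1.91, 1.97 and 2.23 in MRL mice and 1.64, 1.80 and 1.72 in LPR mice. The groups did not overlap but were apart by only 0.10, and MRL 3 stood above the other 5 mice. The change of -0.32 (standard error 0.12, 95% interval -0.61 to -0.02) did not pass in limma (adjusted p = 0.142), and none of 23 other settings brought it past the threshold. Without MRL 3 it was -0.22.

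Forkhead factors share a binding core written TGTTT here, or AAACA on the other strand. For 6 of the 10 genes the RefSeq promoter table (GRCm38.p6) held a sequence, and its 250 bases before the start were searched for this core on both strands. The 3 printed here are those of Slc26a4 and Atp6v1g3, which fell, and of Atp6v1b1, which did not pass, 5′ to 3′ on the strand of the gene, with the core in capitals. They lie at chr12:31559985-31560234 (minus strand), chr1:138273488-138273737 (plus strand) and chr6:83742767-83743016 (plus strand).
Slc26a4 promoter: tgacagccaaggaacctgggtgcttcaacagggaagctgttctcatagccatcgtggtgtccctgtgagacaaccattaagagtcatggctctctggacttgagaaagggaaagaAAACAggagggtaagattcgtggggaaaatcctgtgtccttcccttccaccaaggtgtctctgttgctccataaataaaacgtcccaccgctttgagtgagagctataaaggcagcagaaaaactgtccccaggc
Atp6v1g3 promoter: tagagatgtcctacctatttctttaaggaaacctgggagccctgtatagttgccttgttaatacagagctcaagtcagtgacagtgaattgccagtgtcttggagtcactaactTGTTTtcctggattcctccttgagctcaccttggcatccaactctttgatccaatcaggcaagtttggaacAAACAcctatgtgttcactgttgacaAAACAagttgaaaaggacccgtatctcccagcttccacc
Atp6v1b1 promoter: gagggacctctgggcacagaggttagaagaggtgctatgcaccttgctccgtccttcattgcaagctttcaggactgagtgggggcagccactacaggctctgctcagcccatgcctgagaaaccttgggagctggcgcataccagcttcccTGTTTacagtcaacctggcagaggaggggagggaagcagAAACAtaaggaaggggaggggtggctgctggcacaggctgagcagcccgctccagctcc
The Slc26a4 promoter held 1 core, 135 bases before the start. That of Atp6v1g3 held 3, at 136, 65 and 39 bases, and that of Atp6v1b1 held 2, at 98 and 59 bases, the first of which extends to TGTTTAC. Scnn1g and Foxi1 held 1 each, at 116 and 215 bases, and Scnn1b held none. The core stood in 46.4% and TGTTTAC in 3.17% of the 32851 promoters of the table, so that the core is common. The matches describe letters and not binding.

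The LPR mice also differed among themselves. LPR 1 was the lowest of the 6 mice for 9 of the 13 probes, and LPR 2 was the highest LPR mouse for 11 of them, while LPR 3 was the highest for none. No LPR mouse was the highest of all 6 mice for any of the 13 probes. These ranks were not counted over all tested probes, so whether they are particular to these genes was not tested. Relative to the mean of the MRL mice, the mean over the 7 intercalated cell genes was -0.57, -0.37 and -0.52 in LPR 1, 2 and 3, against 0.04, -0.03 and -0.01 in the MRL mice. For the 3 channel genes it was -0.23, -0.14 and -0.23 in LPR mice and 0.04, -0.09 and 0.05 in MRL mice. Both sets were lower in each LPR mouse than in any MRL mouse, and LPR 2 was the nearest to the MRL mice in both. For the channel genes the margin was narrow (-0.14 in LPR 2 against -0.09 in MRL 2). The median change over all tested genes was -0.12, so part of a lower mean is shared by the array. All LPR mice lay below all MRL mice for 25.6% of all tested genes, and this share was not counted for set means.

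Within each LPR mouse, the channel genes lay above the intercalated cell genes on this scale. The channel mean minus the intercalated mean was 0.33, 0.23 and 0.29 in LPR mice (0.28 ± 0.05, SD, n = 3) and -0.0016, -0.06 and 0.06 in MRL mice. These values describe the 10 chosen genes, and no test was run on them. The channel mean rests on 3 genes, of which Scnn1b alone had no lower value. The Scnn1b probe was also the dimmest of the 13 probes, with means of -4.21 in MRL mice and -4.13 in LPR mice. Over other genes of the same cell types the means were closer to each other, with -0.34 ± 0.12 for 11 principal cell genes and -0.36 ± 0.03 for 20 intercalated cell genes in LPR mice (SD, n = 3 each). The mean of 10 proximal tubule markers was -0.38 ± 0.08, and that of 8 markers of the thick ascending limb and distal convoluted tubule -0.50 ± 0.25. In limma, 3 of the 10 proximal tubule markers and 2 of the 8 others were lower and none was higher. Over all tested genes, 5.47% were lower and 7.12% higher. Cldn16, a claudin of the thick ascending limb, had a change of 0.39 that did not pass (adjusted p = 0.0665 in limma). Every LPR mouse was above the highest MRL mouse for Cldn16, which held for 11.7% of all tested genes. Cldn16 was named after its values were seen. The part of a change shared by other tubule segments in the result was not tested.

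**Figure D3:**
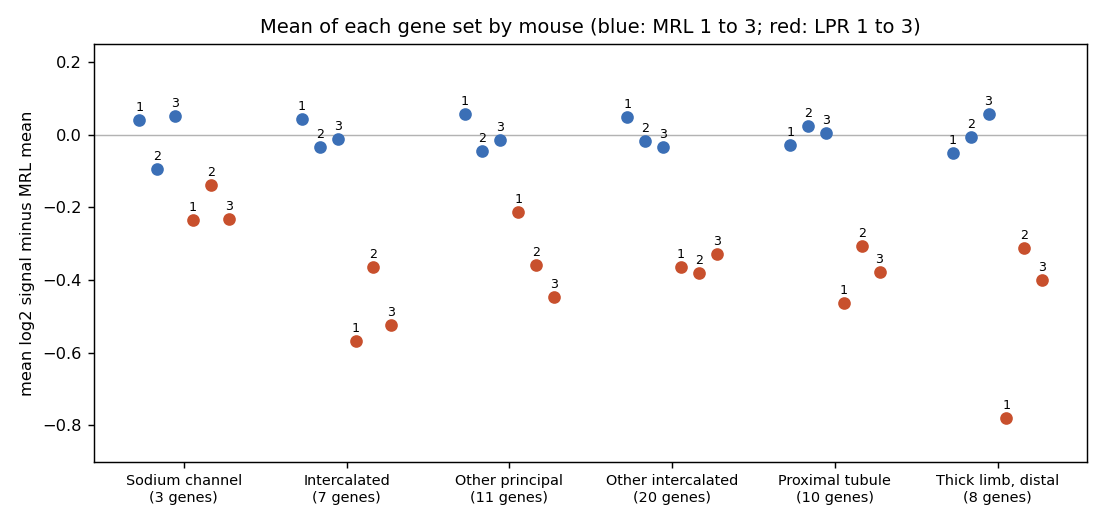
Mean over the genes of each set in each mouse, as the log2 signal minus the mean of the MRL mice, with MRL 1 to 3 in blue and LPR 1 to 3 in red. Every red point lies below every blue point in all 6 sets, by the smallest distance for the 3 channel genes, and LPR 1 stands lowest for the thick limb and distal set at -0.78. Over all tested genes the median change was -0.12, and in 25.6% of them all LPR mice lay below all MRL mice.

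Of 19 regulators of the channel and genes of the mineralocorticoid pathway, 1 was lower and none higher in limma, against 5.47% and 7.12% of all tested genes. The list had a median change of -0.30, and in 11 genes all LPR mice lay below all MRL mice, against 25.6% of all tested genes. The gene that fell was Atp1b1, the β subunit of the sodium pump that drives sodium out of the cell at its basolateral side. It gave 6.85, 6.95 and 6.99 in MRL mice and 6.40, 6.56 and 6.55 in LPR mice (change -0.43, standard error 0.10, adjusted p = 0.0412 in limma). The groups did not overlap, yet the call was lost when any 1 of the 6 mice was left out (adjusted p = 0.0516 to 0.133). The receptor of aldosterone, Nr3c2, had a change of -0.30 (adjusted p = 0.127). The kinase Sgk1, which aldosterone induces, had a change of 0.03 (adjusted p = 0.965), and Hsd11b2, the enzyme that keeps glucocorticoids from the receptor, of 0.26 (adjusted p = 0.364), both with overlapping groups. Of the ubiquitin ligase Nedd4l, which removes the channel from the membrane, the brightest probe had a change of -0.41 (adjusted p = 0.0647) and another probe of -0.62 (adjusted p = 0.0137). These 4 genes did not pass by their brightest probe and were named for their role after their values were seen. Spint1, named after its values were seen, did not pass by its brightest probe (-0.35, adjusted p = 0.110 in limma). Its other probe was lower (-0.51, adjusted p = 0.0312).

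Among 21 other subunits and accessory proteins of the proton ATPase, 2 were lower and 1 was higher, against 5.47% and 7.12% of all tested genes, and the median change was -0.12, close to that of all tested genes. In 8 of them all LPR mice lay below all MRL mice, against 25.6%. Atp6v1c2, the C2 subunit, which like G3 and B1 has a narrow tissue range, fell from 2.00, 1.93 and 1.93 in MRL mice to 1.04, 1.26 and 0.93 in LPR mice. Its change of -0.88 (standard error 0.12, adjusted p = 0.00432 in limma) was close to that of Slc4a9, and it passed under all 23 other settings. Atp6v1a, the A subunit found in all cells, gave 4.62, 4.71 and 4.64 in MRL mice and 4.19, 4.19 and 4.32 in LPR mice (change -0.42, standard error 0.10, adjusted p = 0.0359 in limma). Its groups were apart, but its call was lost when any 1 mouse was left out (adjusted p = 0.0591 to 0.132). Atp6v0a4, the a4 subunit of intercalated cells, had a change of -0.52 that did not pass (adjusted p = 0.0726), and it was named for its role after its value was seen. All its LPR mice lay below all MRL mice.

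Tcirg1, the a3 subunit, moved the other way. It is the isoform of osteoclasts and of macrophage lysosomes. Its signals were 2.00, 2.15 and 2.16 in MRL mice and 2.94, 2.82 and 2.95 in LPR mice, a rise of 0.80 (standard error 0.10, adjusted p = 0.00357 in limma), and a second probe rose by 0.79 (adjusted p = 0.00386). Within slide column 1, where LPR 1 is the only LPR mouse, the first probe did not pass. Of 13 macrophage markers, all well above background in every mouse, 12 were higher and none lower, against 7.12% and 5.47% of all tested genes. Their summed level, in units of the array's 75th percentile, was 41.9 to 54.7 in MRL mice and 215 to 226 in LPR mice. Of 7 osteoclast markers, 5 stood above background in every mouse, and of these Ctsk was higher and the other 4, Acp5, Calcr, Oscar and Ocstamp, did not pass. Mmp9 and Dcstamp stood above background in no MRL mouse and were tested only through their LPR signals. The summed level of all 7 was 30.5 to 40.1 in MRL mice and 45.0 to 53.1 in LPR mice. Atp6v0d2 is also made by osteoclasts and some macrophages, and both of its probes had negative changes in the same kidneys in which 12 macrophage markers were higher. The part of these cells in the signals of the pump subunits was not tested.

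Among 20 other genes of intercalated cells, 3 were lower and none higher by the brightest probe, against 5.47% and 7.12% of all tested genes, with a median change of -0.44. In 11 of them all LPR mice lay below all MRL mice and in 2, P2ry14 and Car15, above them, against 25.6% and 11.7%. The brightest probe of P2ry14, a receptor for UDP-glucose, had a change of 0.36 (adjusted p = 0.0664 in limma) and its second probe, which was higher, of 0.44 (adjusted p = 0.0408), and both genes were named after their values were seen. So was Slc4a8, whose brightest probe did not pass (-0.18, adjusted p = 0.409 in limma). Of its other probes 1 was lower (-0.58, adjusted p = 0.0114) and 1 did not pass (-0.44, adjusted p = 0.0674). Hmx2, a homeobox transcription factor, fell from 0.24, -0.08 and 0.13 in MRL mice to -0.88, -0.84 and -0.80 in LPR mice, a change of -0.94 (standard error 0.12, adjusted p = 0.00301 in limma). Its second probe had a change of -0.92 (adjusted p = 0.0174). The 3 LPR mice were nearly equal, and the change was more negative than that of any of the 10 genes. Within slide column 1, where LPR 1 is the only LPR mouse, the brightest probe did not pass. Car2, the cytosolic carbonic anhydrase that supplies protons and bicarbonate, gave 4.65, 4.90 and 4.73 in MRL mice and 4.22, 4.24 and 4.18 in LPR mice (change -0.55, standard error 0.11, adjusted p = 0.0213 in limma). Without MRL 2 (adjusted p = 0.0844), MRL 3 (0.0672), LPR 1 (0.0536) or LPR 3 (0.0764) it did not pass. Rhcg, an ammonia transporter of the collecting duct, fell by 0.54 (standard error 0.14, adjusted p = 0.0492 in limma). It gave 3.66, 3.64 and 3.49 in MRL mice and 2.90, 3.31 and 2.97 in LPR mice. Its call was lost without each mouse other than LPR 2 (adjusted p = 0.0929 to 0.141). Under the other settings, 0 to 10 of the 20 genes were lower and 0 to 2 higher, with both highest counts under normexp background correction.

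Of 11 other genes of principal cells, 2 were lower and none higher, against 5.47% and 7.12% of all tested genes, and the median change was -0.33. In 6 of them all LPR mice lay below all MRL mice, against 25.6%. The list shares Hsd11b2 and Fxyd4 with that of the regulators. Aqp4, a basolateral water channel, gave 2.20, 2.11 and 2.24 in MRL mice and 1.37, 0.93 and 1.21 in LPR mice, a change of -1.01 (standard error 0.14, adjusted p = 0.00436 in limma). A second probe had a change of -1.10 (adjusted p = 0.0104), but the remaining probe had one of -0.07 (adjusted p = 0.642), so the probes of this gene disagreed. With the slide column in the fit, which compares LPR 1 alone with the MRL mice, the change of the brightest probe was -0.81 and did not pass. It was the same within column 1. Tfcp2l1, a transcription factor of the collecting duct needed by both cell types, gave 3.97, 3.98 and 4.04 in MRL mice and 3.45, 3.64 and 3.54 in LPR mice (change -0.45, standard error 0.10, adjusted p = 0.0328 in limma). Its second probe had a like change of -0.46 (adjusted p = 0.0299), but the call of the brightest was lost without each mouse other than LPR 2 (adjusted p = 0.0771 to 0.112). Aqp2, the vasopressin-controlled apical water channel that defines principal cells, gave 4.05, 3.26 and 3.60 in MRL mice and 3.89, 3.68 and 3.56 in LPR mice, named for its role after its values were seen. The groups overlapped fully, and the change was 0.07 (standard error 0.21, adjusted p = 0.843 in limma).

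**Figure D4:**
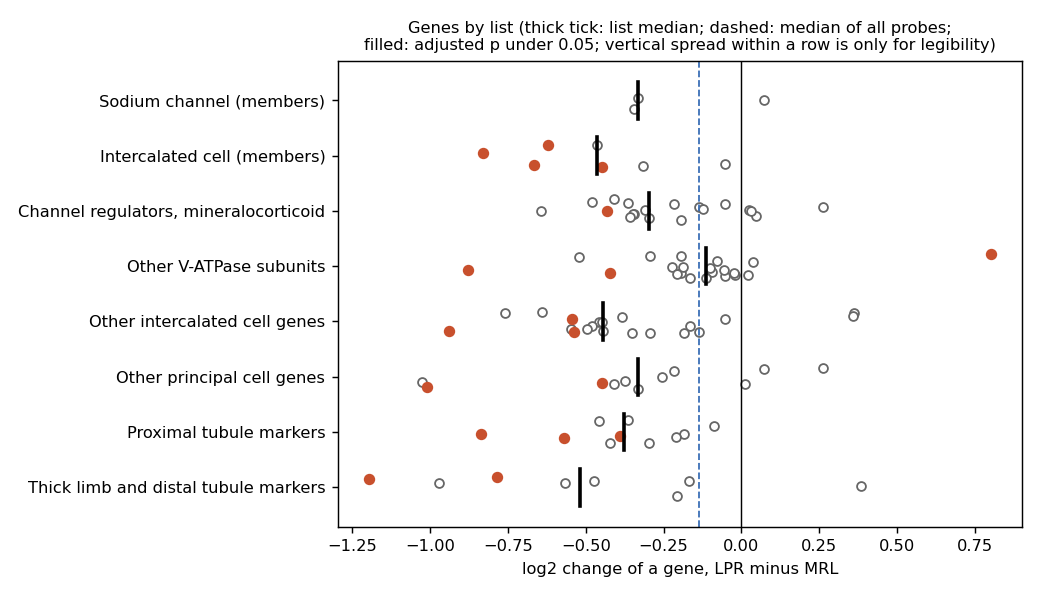
Change of each tested gene by its brightest probe (LPR minus MRL, log2 scale), in rows by list, with the median of a list as a thick tick, the median of all tested probes as a dashed line at -0.14, and filled red points for an adjusted p under 0.05. The 4 filled intercalated cell members reach from -0.83 to -0.45, and the filled point on the right is Tcirg1 at 0.80.

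The 4 calls among the 10 genes differed in how much they rested on the settings. Slc4a9 passed under all 23 other settings, Slc26a4 under 17, Atp6v0d2 under 14 and Atp6v1g3 under 13. The settings with the slide column in the fit or within column 1 compare LPR 1 alone with the MRL mice. A call lost there cannot be told apart from the loss of LPR mice. No setting made any of the 10 genes higher with an adjusted p under 0.05.

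**Figure D5:**
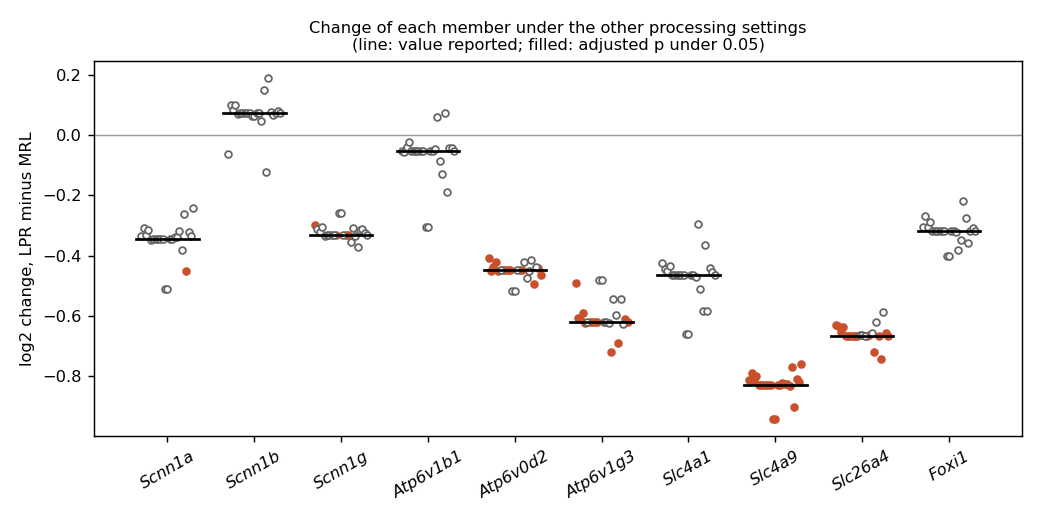
Change of each of the 10 genes (LPR minus MRL, log2 scale) under the 23 other settings, with the reported value as a black line and an adjusted p under 0.05 as a filled red point. Slc4a9 is red throughout between -0.94 and -0.76, while Scnn1b and Atp6v1b1 have points on both sides of 0.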

How the data were processed

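Total RNA of whole kidneys was measured on 6 Agilent SurePrint G3 mouse arrays of 1 slide. The methods name Trizol and the labels the RNeasy Mini Kit for its isolation. Per the file headers, the deposited intensity values come from Agilent Feature Extraction 12.0.3.1, with background subtracted and no normalization between arrays, and probes are placed on mm9. The authors also deposited the ratio of each intensity to its array's 75th percentile (GeneSpring), with column medians of 0.0818 to 0.0883. These were used as an alternative.

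Control and outlier spots (73 to 90 per array) were left out of the tests, log2 intensities were shifted by the 75th percentile over non-control spots, and spots of a probe were averaged. Probes well above background on at least 3 arrays were tested with limma 3.58.1 (R 4.3.3) and Benjamini-Hochberg adjustment, threshold 0.05. The tested probe with the highest mean stands for a gene. With 3 mice a group, the smallest p of an exact test would be 0.1. The number of arrays limits the precision. Named were all 10 genes and, of the gene lists, those that passed, or the largest 3 changes each way if over 6 passed. Of marker lists of other cells, summed levels were taken. The genes, lists and tests were chosen with earlier results of these data known. All 13 probe accessions were found in the RefSeq table.

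Alternatives were normexp (offset 50), quantile normalization, shifts by the median or by the percentile of detected probes, the authors' values, other filters, a floor, outliers kept, an intensity trend, the slide column, the replicate number, the methods' t-test, probe means and leaving out each mouse. A median shift over tested probes was added after seeing the data. On simulated data (39916 probes, 3 against 3), limma recovered 15 of 100 changes of 0.7 and 67 of 100 of 1.4 (log2), with 2 false calls (seed 11). In the data far more probes were called (2462 lower and 2606 higher), so this recovery is not the sensitivity of the comparison here. Figures used matplotlib 3.10.9 (python 3.11.15).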

Additional observations from a re-analysis of the deposited data

How the results depend on the processing

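Counts are not given separately for the slide column in the fit or within column 1, which compare LPR 1 alone with the MRL mice. Under the other alternatives the number of the 10 genes that were lower was 4 or 5 (main value 4). The exceptions were 2 without the filter on dim probes, 1 with the replicate block, and 1 to 4 when a mouse was left out. The intercalated cell genes gave 2 without the filter, 1 with the replicate block and 1 to 3 without a mouse. Of the 13 probes, 3 were lower without the filter, 2 with the replicate block and 2 to 5 without a mouse (main value 5). Of the 3 channel genes 1 was lower under normexp, under the intensity trend and under the methods' t-test on log2 and on linear values, in each case Scnn1g, and 0 to 1 without a mouse. Over all probes, 2462 were lower, which became 4498 under normexp, 1093 without the filter, 463 with the slide column, 315 within column 1, 1117 with the replicate block, 1385 and 1353 by the methods' t-test on log2 and linear values, and 760 to 2269 without a mouse. The 2606 higher probes became 1458, 1116, 1736 and 1444 with the slide column, within column 1 and by both t-tests, and 1958 to 2370 without a mouse. The change of Scnn1b turned to -0.061 under normexp, and it ranged from -0.12 to 0.19 without a mouse, negative without MRL 2. That of Atp6v1b1 ranged from -0.19 to 0.075, positive without MRL 1 (0.061) or LPR 1. Those of Sgk1 (-0.32 to 0.35) and Aqp2 (-0.12 to 0.28) also turned without single mice, Sgk1 without MRL 3, LPR 1 or LPR 3 and Aqp2 without MRL 2 or LPR 1. Across all settings, including those with LPR 1 alone, the lower genes numbered 0 to 6 among the regulators and 1 to 4 among the other pump subunits. They numbered 0 to 10 among the other intercalated and 0 to 4 among the other principal cell genes. Fewer mice or more probes were tested in some of these settings, and the cause was otherwise not tested. Nothing in the labels says that the replicate numbers pair the mice. Deviations of same-numbered mice correlated at 0.115, 0.0203 and 0.00516, and LPR 2 and LPR 3 correlated better with MRL 3 and MRL 2 (0.0510 and 0.0422). With 3 mice a group, these values cannot decide whether mice were paired. The median change of all probes was -0.17 to -0.11 under all settings. Arrays show no depth, and all 13 probes were well above background.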
